A study of Mus musculus with 6 samples.

Results

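Glucose enters cells through facilitative transporters, is trapped as glucose 6-phosphate by hexokinases, and is committed to glycolysis at a step that fructose 2,6-bisphosphate stimulates. The open chromatin of 9 genes of this entry module was described: the transporter genes Slc2a1, Slc2a3 and Slc2a4, the hexokinase genes Hk1 and Hk2, and Pfkfb1, Pfkfb2, Pfkfb3 and Pfkfb4, whose products make and break down fructose 2,6-bisphosphate. The genes were chosen by name, and their regions were those that overlapped the annotated gene or the 10 kb on either side of it, in mm10 coordinates. They held 50 of the 49048 regions found in all.

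The cells were an immortalised mouse line of atrioventricular cushion mesenchyme, the embryonic tissue from which heart valves and septa form. The line came from the H- 2Kb-tsA58 transgenic strain, which carries a temperature-sensitive viral T antigen, and this was shared by every library. High-glucose cells were kept in 25 mM glucose for 48 h and normal-glucose cells in 5.5 mM glucose for 48 h, with 3 libraries each. Open chromatin was mapped by ATAC-seq, which reads out where a transposase can reach the DNA, and each library had a list of peaks called by the authors. One normal-glucose list, that of replicate 2, held 66 peaks and none at these loci, so 5 lists were compared: high-glucose replicates 1, 2 and 3, with 22156, 25020 and 22598 peaks, and normal-glucose replicates 1 and 3, with 24263 and 40350. The labels do not say that replicates were separate cultures, and the 6 libraries hold no osmotic control. The lists hold no read counts, so sequencing depth is unknown, and a longer list reaches weaker sites. In these bulk libraries fewer cells with an open site and less cutting per cell cannot be told apart.

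The label of the cells was checked by peaks within 1 kb of annotated gene starts. Of 10 cushion mesenchyme markers, 8 had such a peak in every list (Vim, Fn1, Cdh2, Cdh11, Snai1, Snai2, Sox9 and Tbx20), while Twist1 and Postn had one in 4 of the 5. None of 6 endothelial, 6 cardiomyocyte and 4 epithelial markers had one in every list. Kdr, an endothelial receptor gene, had one in 4 lists. Of 4 blood markers, only Spi1 had one in every list. Across all 21883 protein-coding genes 37.2% had a start peak in every list.

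The isoforms of each step have different habits. Slc2a1 encodes the widely expressed basal glucose transporter, Slc2a3 a high-affinity one best known from neurons, and Slc2a4 the insulin-regulated one of muscle and fat. Hk1 is the housekeeping hexokinase and Hk2 the one that is induced by insulin, growth signals and hypoxia. Among the bifunctional enzymes, Pfkfb1 is known from liver and muscle, Pfkfb2 from heart, and Pfkfb3 and Pfkfb4 from proliferating and hypoxic cells.

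Promoter sequences from RefSeq (GRCm38.p6, the same coordinates as mm10) were at hand for 7 of the 9 genes, with 14 annotated starts, and not for Slc2a3 and Slc2a4. Each runs 5′ to 3′ along the gene from 250 bases before the start to 50 after it. Those below are 8 of the starts that the described start regions cover, and the outer start of Hk1, where no list had a peak. Summits of Hk1 and some of Pfkfb3 lay past the printed bases. Capitals mark the letters ACGTG read on either strand, the core of the site bound by hypoxia-inducible factors.
Slc2a1 start, chr4:119108495-119108794, plus strand: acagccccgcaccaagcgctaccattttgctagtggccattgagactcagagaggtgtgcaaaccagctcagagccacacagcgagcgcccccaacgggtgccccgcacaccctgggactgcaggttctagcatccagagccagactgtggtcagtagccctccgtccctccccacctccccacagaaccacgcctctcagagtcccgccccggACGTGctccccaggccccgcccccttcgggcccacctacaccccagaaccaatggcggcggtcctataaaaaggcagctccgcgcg
Hk1 inner start, chr10:62340372-62340671, minus strand: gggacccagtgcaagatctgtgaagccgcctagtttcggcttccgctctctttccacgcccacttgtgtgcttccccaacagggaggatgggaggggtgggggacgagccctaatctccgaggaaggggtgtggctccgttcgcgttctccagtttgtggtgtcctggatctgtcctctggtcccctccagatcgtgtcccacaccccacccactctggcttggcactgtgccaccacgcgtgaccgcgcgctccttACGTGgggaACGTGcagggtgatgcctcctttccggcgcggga
Hk1 outer start, chr10:62379859-62380158, minus strand: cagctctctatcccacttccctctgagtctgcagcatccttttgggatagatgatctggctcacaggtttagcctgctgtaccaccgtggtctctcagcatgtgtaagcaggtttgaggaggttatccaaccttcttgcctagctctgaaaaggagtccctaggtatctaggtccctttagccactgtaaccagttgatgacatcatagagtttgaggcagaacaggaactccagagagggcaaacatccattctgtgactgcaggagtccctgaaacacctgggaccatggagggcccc
Hk2 start, chr6:82774405-82774704, minus strand: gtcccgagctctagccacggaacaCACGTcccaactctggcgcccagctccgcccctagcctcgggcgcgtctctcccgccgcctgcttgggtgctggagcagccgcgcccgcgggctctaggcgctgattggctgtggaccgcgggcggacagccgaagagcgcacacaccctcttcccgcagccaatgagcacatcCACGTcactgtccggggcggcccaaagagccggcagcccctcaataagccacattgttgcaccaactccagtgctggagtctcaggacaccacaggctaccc
Pfkfb1 second start, chrX:150587993-150588292, plus strand: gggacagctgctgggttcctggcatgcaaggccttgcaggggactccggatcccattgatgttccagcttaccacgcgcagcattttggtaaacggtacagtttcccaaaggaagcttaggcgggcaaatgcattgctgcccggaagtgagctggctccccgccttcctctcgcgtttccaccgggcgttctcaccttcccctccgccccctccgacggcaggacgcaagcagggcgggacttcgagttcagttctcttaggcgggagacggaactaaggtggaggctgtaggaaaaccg
Pfkfb2 middle start, chr1:130715772-130716071, minus strand: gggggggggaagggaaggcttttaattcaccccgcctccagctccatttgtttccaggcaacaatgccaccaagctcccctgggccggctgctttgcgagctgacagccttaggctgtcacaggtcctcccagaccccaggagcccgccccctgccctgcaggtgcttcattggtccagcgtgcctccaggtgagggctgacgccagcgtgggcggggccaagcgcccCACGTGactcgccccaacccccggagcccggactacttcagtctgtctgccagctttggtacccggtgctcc
Pfkfb3 outer start, chr2:11553880-11554179, minus strand: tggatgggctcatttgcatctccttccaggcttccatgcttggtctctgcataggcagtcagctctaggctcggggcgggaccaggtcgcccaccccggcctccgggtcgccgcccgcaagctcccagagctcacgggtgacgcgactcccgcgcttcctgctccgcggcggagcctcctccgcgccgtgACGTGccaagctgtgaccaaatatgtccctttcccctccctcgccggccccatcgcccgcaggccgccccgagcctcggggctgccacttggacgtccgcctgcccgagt
Pfkfb3 inner start, chr2:11502041-11502340, minus strand: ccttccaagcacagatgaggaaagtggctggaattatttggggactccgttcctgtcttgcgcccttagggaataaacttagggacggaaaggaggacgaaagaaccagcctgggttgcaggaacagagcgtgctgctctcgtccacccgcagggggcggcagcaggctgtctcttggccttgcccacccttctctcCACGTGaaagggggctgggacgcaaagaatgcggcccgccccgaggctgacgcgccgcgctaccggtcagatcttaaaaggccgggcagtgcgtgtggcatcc
Pfkfb4 start, chr9:108991652-108991951, plus strand: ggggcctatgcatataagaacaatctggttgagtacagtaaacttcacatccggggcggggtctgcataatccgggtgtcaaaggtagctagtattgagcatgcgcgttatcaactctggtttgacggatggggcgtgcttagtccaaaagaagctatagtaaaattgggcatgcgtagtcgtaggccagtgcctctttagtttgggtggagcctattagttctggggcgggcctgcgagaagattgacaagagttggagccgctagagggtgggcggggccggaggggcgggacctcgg

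Of the 9 genes, 8 had a peak within 1 kb of a start in every list, and the exception, Pfkfb2, had one in 4 of the 5. For Slc2a3 and Slc2a4, where the annotation used gives neither strand nor start, either end of the gene counted. The genes were chosen with earlier results of these data known, so this count carries no test, and it stands beside the 37.2% of all protein-coding genes. Of the 50 regions, 18 (36.0%) were present in all 5 lists, against 25.1% of all 49048 regions and 28.9% of the 37001 regions within 10 kb of a protein-coding gene. Another 17 (34.0%) were in a single list, against 39.7% of all regions, and 12 of these 17 (70.6%) were in normal-glucose replicate 3, the longest list, against 59.4% of all regions in a single list.

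**Figure D1:**
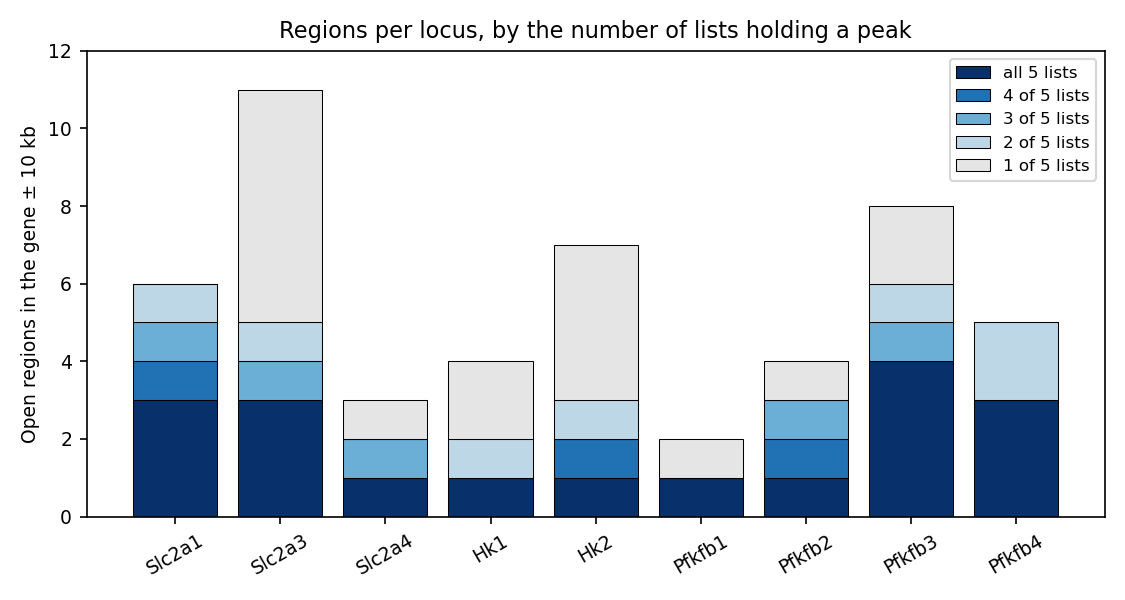
Number of open regions in each gene and the 10 kb either side (vertical axis), stacked by how many of the 5 lists held a peak. Pfkfb3 had 4 regions in all 5 lists, while Slc2a3, with 11 regions, had 3 in all 5 and 6 in a single list.

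Of the 18 shared regions 11 lay within 1 kb of the start of any gene, and of the 12321 shared regions in the genome 7480 did, a similar share. Within 1 kb of the start of any gene lay 18 of the 50 regions, and 11 of them (61.1%) were in every list, against 48.8% of such regions in the genome. Away from any start 7 of 32 regions (21.9%) were in every list, against 14.8% of such near-gene regions. The summits of the 18 shared regions lay within 24 to 294 bp of each other across the 5 lists, with a median spread of 48.5 bp, and the median for all shared regions was 64.0 bp. The median peak of the 18 stood at the 72.8, 68.7 and 72.0 percentile of its own list in high-glucose replicates 1, 2 and 3, and at percentiles 64.4 and 84.5 in normal-glucose replicates 1 and 3. The medians for all shared regions were 70.9, 74.2 and 71.1 in high-glucose replicates 1, 2 and 3 and 72.4 and 83.8 in the normal-glucose pair. A percentile here ranks a peak by the authors' −log10 p within 1 list, so where lists differ in length a gap in percentile is not read as a change.

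**Figure D2:**
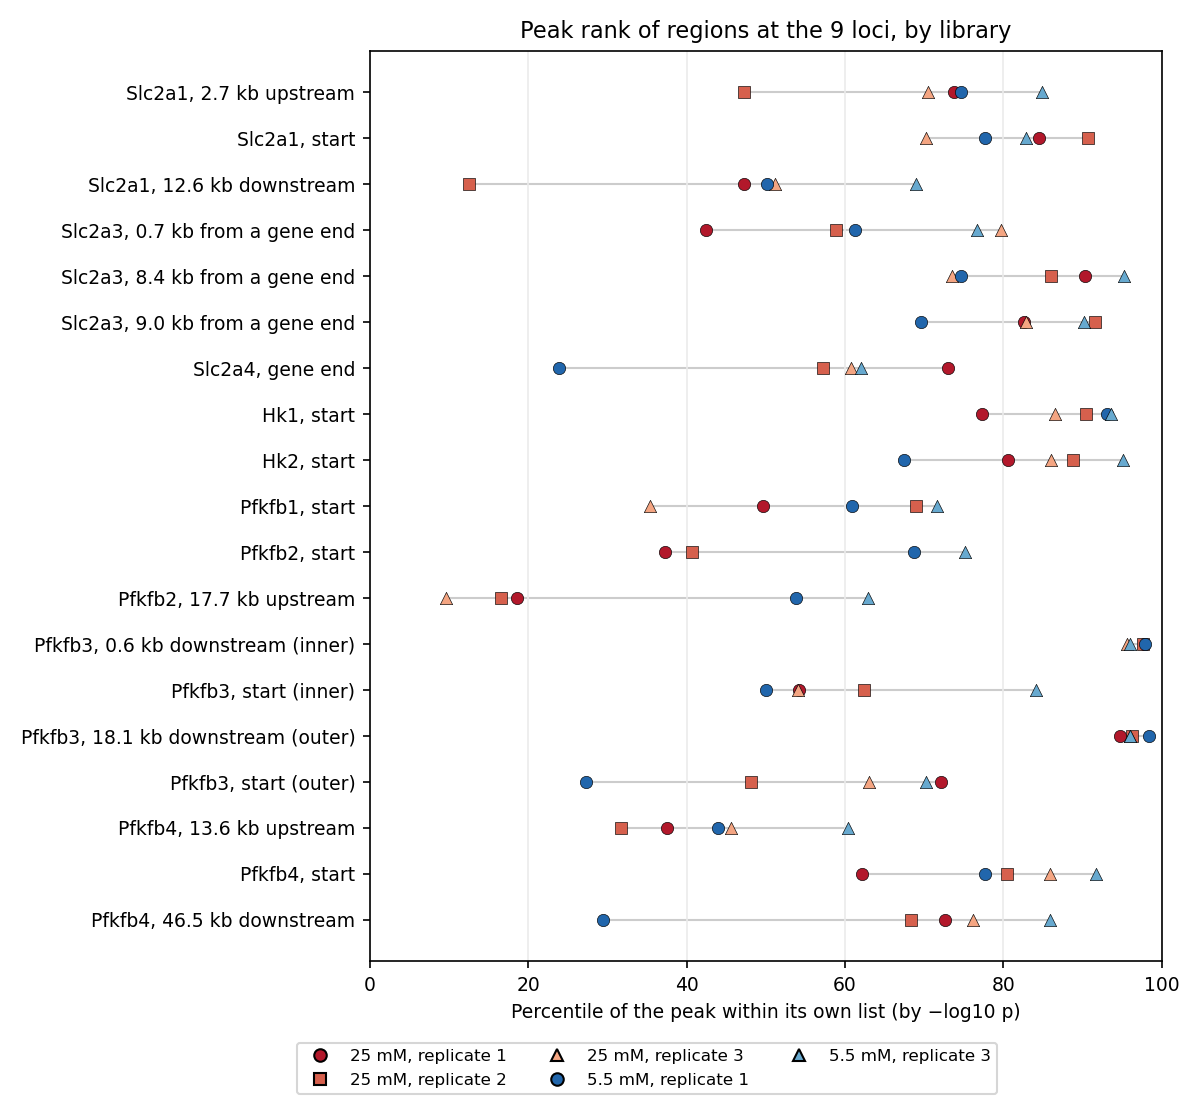
Percentile of the best peak within its own list (horizontal axis, ranked by −log10 p) for the 18 regions present in all 5 lists and the Pfkfb2 start region, which was in 4. Names give the distance to the nearest annotated start, or to a gene end for Slc2a3 and Slc2a4, and the grey line spans the lists. A pair of Pfkfb3 regions stood above the 94 percentile in every list. The lists differ in length, so a gap between the groups is not read as a change.

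Among the transporters, Slc2a1 had 6 regions, with an open start and an open upstream region in every list. Its start region (chr4:119108539-119108838) stood at percentiles 84.5, 90.7 and 70.2 in high-glucose replicates 1, 2 and 3, and at percentiles 77.7 and 82.8 in normal-glucose replicates 1 and 3, so the groups overlapped. Summits lay 47, 57 and 78 bp before the start in high-glucose replicates 1, 2 and 3, and 73 and 100 bp before it in normal-glucose replicates 1 and 3. In the sequence above, that stretch lies upstream of the marked ACGTG, whose first base is 36 bases before the start. The second shared region lay 2709 bp upstream of the start (chr4:119105764-119106036). It stood at percentiles 73.8, 47.3 and 70.5 in the high-glucose lists and at percentiles 74.6 and 84.8 in the normal-glucose lists, and at equal list length the groups overlapped. The third lay inside the gene, 12.6 kb past the start (chr4:119121369-119121580). High-glucose replicate 2 was the lowest list there, at the 12.5 percentile, while high-glucose replicates 1 and 3 stood at 47.2 and 51.1 and normal-glucose replicates 1 and 3 at 50.1 and 68.9. A further region 390 bp past the start was listed in high-glucose replicates 2 and 3 and in normal-glucose replicate 3, and one 17.2 kb past it in every list except high-glucose replicate 3. The last, 7.11 kb past the start, was in high-glucose replicate 2 and normal-glucose replicate 3.

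Slc2a3 had the most regions of the 9 genes, 11, and 6 of them were in a single list. Its annotated span of 74.6 kb held 8 of them, of which 1 was in every list, 694 bp inside the higher-coordinate end (chr6:122801344-122801669). That region stood at percentiles 42.5, 58.9 and 79.8 in high-glucose replicates 1, 2 and 3, and at percentiles 61.2 and 76.7 in normal-glucose replicates 1 and 3. No region lay within 1 kb of the lower-coordinate end, where the nearest was 12233 bp away and in a single list. A pair of regions that both ranked higher than this one in 4 of the 5 lists lay outside the gene, 8368 and 8982 bp beyond the higher-coordinate end (chr6:122810731-122811201 and chr6:122811345-122811590). In the nearer region the peaks stood at percentiles 90.3, 86.1 and 73.5 in the high-glucose lists and at percentiles 74.6 and 95.2 in the normal-glucose lists. In the farther region they stood at percentiles 82.6, 91.6 and 82.8 in the high-glucose lists and at percentiles 69.5 and 90.2 in the normal-glucose lists. In lists as deposited the groups overlapped at both regions. At equal list length they still overlapped at the nearer region. At the farther one percentiles were 82.6, 90.5 and 82.5 in high-glucose replicates 1, 2 and 3 and 66.7 and 82.1 in normal-glucose replicates 1 and 3. Every high-glucose rank lay above both normal-glucose ranks there, as at 12.1% of all regions shared at equal length. Of the 6 regions in a single list, 4 were in normal-glucose replicate 3.

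Slc2a4, the shortest of the 9 genes at 5.93 kb, had 1 region in every list, over its higher-coordinate end (chr11:69948164-69948335). The peak stood at percentiles 73.0, 57.2 and 60.8 in high-glucose replicates 1, 2 and 3, and at percentiles 23.9 and 62.0 in normal-glucose replicates 1 and 3. In lists as deposited normal-glucose replicate 1 was the low list. At equal list length percentiles were 73.0, 51.7 and 60.0 in high-glucose replicates 1, 2 and 3, and 16.6 and 30.8 in normal-glucose replicates 1 and 3. Every high-glucose rank lay above both normal-glucose ranks there, as at 12.1% of all regions shared at equal length. Summits lay 31, 55 and 49 bp past that end in the high-glucose lists and 31 and 43 bp past it in the normal-glucose lists. The locus held 2 more regions, one in 3 lists and one in normal-glucose replicate 3 alone at the 5.65 percentile.

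Both hexokinase genes had a strong start region, and Hk1 had little else. In a window of 131 kb, Hk1 held 4 regions and 1 of them was in every list, at its inner start (chr10:62340093-62340676). Its peak stood at percentiles 77.3, 90.5 and 86.5 in high-glucose replicates 1, 2 and 3, and at percentiles 93.1 and 93.6 in normal-glucose replicates 1 and 3. Here the high-glucose ranks all lay below the normal-glucose ones, in lists of different length, and at equal list length they overlapped. Summits lay past the start in every list, by 194, 209 and 168 bp in the high-glucose lists and by 193 and 201 bp in the normal-glucose lists, beyond the promoter window. A peak reached into the window in high-glucose replicates 2 and 3 and normal-glucose replicate 3. In high-glucose replicate 2 this was a second peak of the region, at the 38.7 percentile. At the outer start, 39.5 kb upstream on the same strand, no list had a peak, and the nearest region of the locus was 39232 bp away. The other 3 regions of the locus were in 1 or 2 lists. The pair of Hk1 sequences above differs in base content: the inner window holds 20 CG dinucleotides and ACGTG in 2 places, and the outer window holds 1 CG dinucleotide and no ACGTG.

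Hk2 was open at its single annotated start (chr6:82774368-82774736) in every list. The peak stood at percentiles 80.6, 88.8 and 86.0 in high-glucose replicates 1, 2 and 3, and at percentiles 67.5 and 95.1 in normal-glucose replicates 1 and 3, so the high-glucose lists fell between the normal-glucose ones. Summits lay 43, 14 and 41 bp before the start in the high-glucose lists and 15 and 43 bp before it in the normal-glucose lists. A second region, 752 bp into the gene (chr6:82773458-82773702), was missing from high-glucose replicate 1. Where listed, it stood at percentiles 82.3 and 71.3 in high-glucose replicates 2 and 3 and at percentiles 89.0 and 83.8 in normal-glucose replicates 1 and 3. The other 5 regions of the locus were in 1 or 2 lists. The promoter sequence of Hk2 holds ACGTG in 2 places, read as its reverse complement, with first bases 226 and 52 bases before the start.

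**Figure D3:**
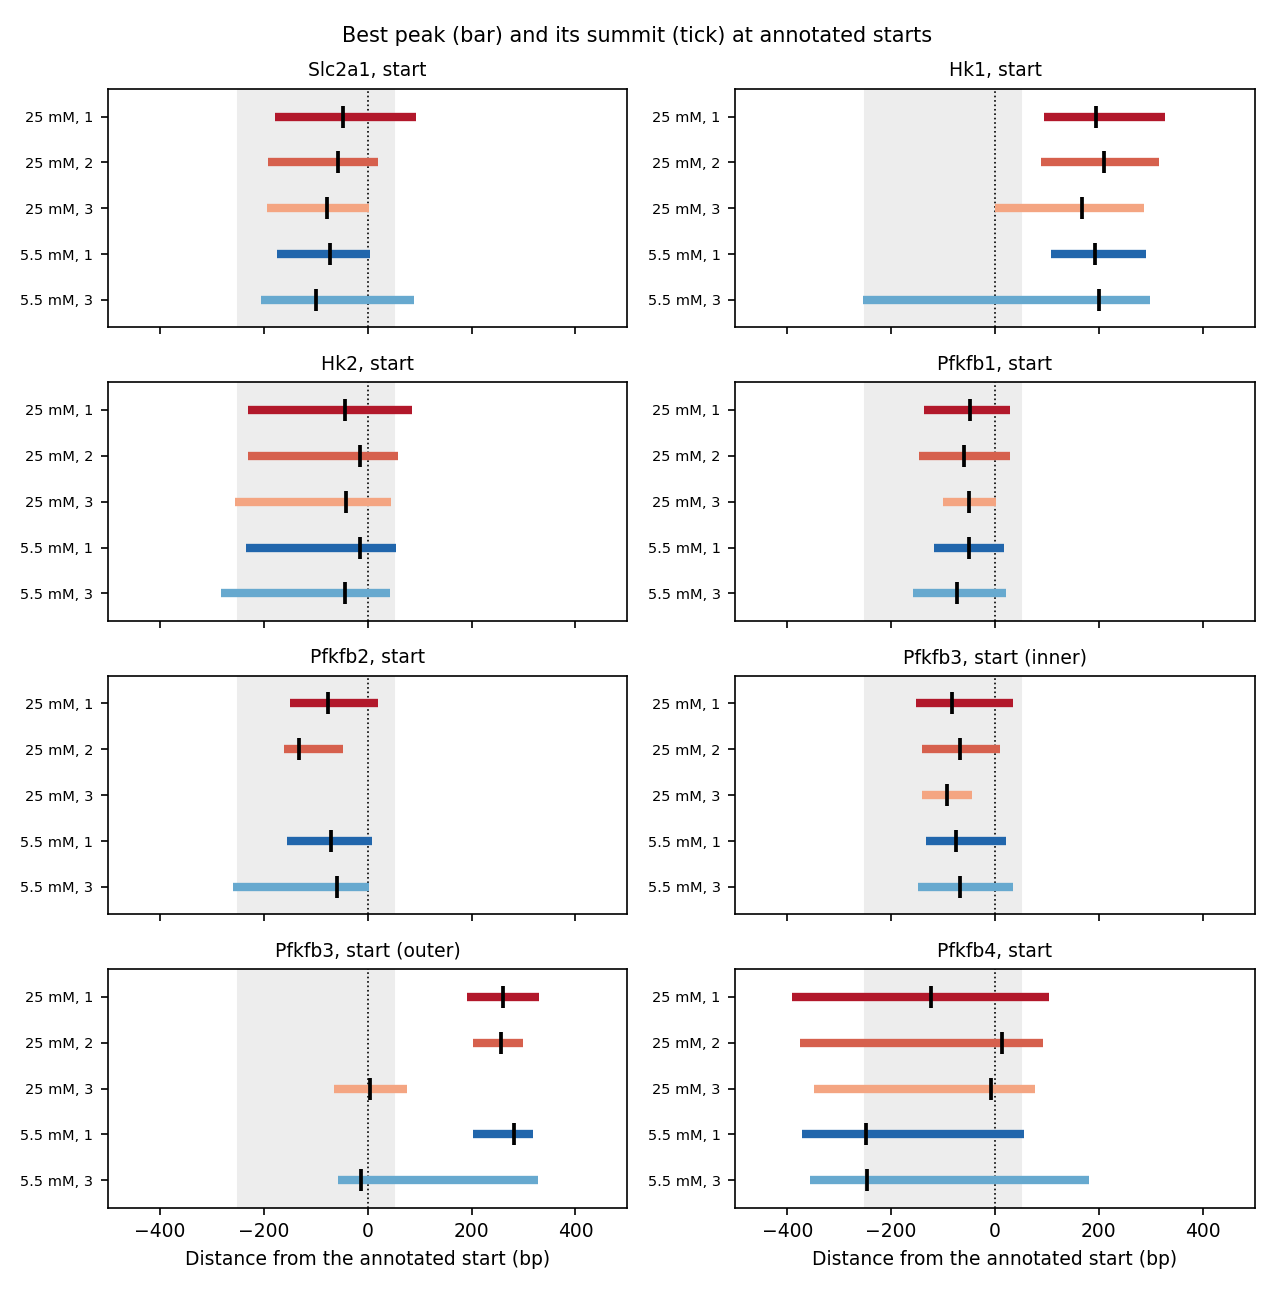
Best peak of each list (coloured bar) and its summit (black tick) by distance from the annotated start in bp (horizontal axis, negative upstream), with the 3 high-glucose lists (25 mM) above the 2 normal-glucose lists (5.5 mM). Grey shading marks the promoter window of 300 bases, and Hk1 is drawn at its inner start. Hk1 summits lay 168 to 209 bp past the start, and Pfkfb4 summits were split, with 2 normal-glucose summits at 246 and 248 bp before the start.

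Pfkfb3, whose product has kinase activity far above its phosphatase activity, had the most shared regions of the 9 genes and the highest-ranked ones. It held 4 regions in all 5 lists in a window of 103 kb, and 1.08% of protein-coding genes held as many or more, without regard to gene length. A region 550 bp past the inner start (chr2:11501300-11501540) stood at percentiles 97.8, 97.6 and 95.7 in high-glucose replicates 1, 2 and 3, and at percentiles 97.9 and 96.0 in normal-glucose replicates 1 and 3. The authors' fold enrichment of this peak was 18.0, 20.2 and 15.9 in the high-glucose lists and 17.1 and 15.9 in the normal-glucose lists. A region 18.1 kb past the outer start (chr2:11535475-11535824), between the starts, stood at percentiles 94.7, 96.3 and 96.0 in the high-glucose lists and at percentiles 98.4 and 96.0 in the normal-glucose lists. Neither of these regions covers a start of Pfkfb3, and the groups overlapped at both. The other 4 regions of the locus that were not in every list were in 1 to 3 lists.

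The starts of Pfkfb3 themselves ranked lower. At the inner start (chr2:11502055-11502242) the peak stood at percentiles 54.2, 62.4 and 54.1 in high-glucose replicates 1, 2 and 3, and at percentiles 50.0 and 84.1 in normal-glucose replicates 1 and 3. Summits were tight there, 82, 68 and 92 bp before the start in the high-glucose lists and 75 and 68 bp before it in the normal-glucose lists, upstream of the E-box letters CACGTG, which begin 53 bases before the start and are marked in the sequence. At the outer start (chr2:11553600-11553993) the peak stood at percentiles 72.2, 48.2 and 63.1 in the high-glucose lists and at percentiles 27.2 and 70.3 in the normal-glucose lists. By the best peak of each list the outer region had 2 summit positions, and the lists did not divide by glucose between them. Summits lay 260 and 256 bp past the start in high-glucose replicates 1 and 2 and 281 bp past it in normal-glucose replicate 1. They lay 5 bp past the start in high-glucose replicate 3 and 13 bp before it in normal-glucose replicate 3. High-glucose replicates 2 and 3 each had a second peak in the region, at percentiles 6.36 and 43.9, whose summits are not given.

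Pfkfb4 was open at its start in every list, with a broad region (chr9:108991511-108992082). The peak stood at percentiles 62.1, 80.4 and 85.9 in high-glucose replicates 1, 2 and 3, and at percentiles 77.7 and 91.7 in normal-glucose replicates 1 and 3. The summit was 123 bp before, 13 bp past and 8 bp before the start in high-glucose replicates 1, 2 and 3, and 248 and 246 bp before it in normal-glucose replicates 1 and 3. All high-glucose summits thus lay closer to the start than both normal-glucose summits, with a gap of 123 bp between the groups. Of the 18 shared regions of the 9 genes this was the only one with such a separation (5.56%), against 18.4% of all 12321 shared regions. A separation of at least 100 bp, a size set after this value was seen, occurred in 0.690% of all shared regions. That share is not matched for peak width. The median peak width of the 5 lists was 141 to 155 bp, and narrow peaks leave little room for such a gap. The peaks themselves were 425 to 538 bp wide and overlapped across the same stretch in every list, and no test was made of the summit position.

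Further shared regions of the Pfkfb4 window lay outside the gene. One, 13.6 kb upstream of the start (chr9:108977979-108978301), was in every list at percentiles 37.5, 31.7 and 45.6 in the high-glucose lists and at percentiles 43.9 and 60.4 in the normal-glucose lists. It reached 9971 bp from the annotated gene and was the outermost region inside the window, while the nearest region outside any window lay 10474 bp from Hk2 and was in 1 list. Another lay at a start of the neighbouring gene Shisa5 (chr9:109038400-109038832), at percentiles 72.6, 68.3 and 76.2 in the high-glucose lists and at percentiles 29.4 and 85.9 in the normal-glucose lists. Beside it was the one region of the 9 loci that both normal-glucose lists held and every high-glucose list lacked (chr9:109039130-109039283), at percentiles 47.2 and 10.9 in normal-glucose replicates 1 and 3. That is 1 of 50 regions (2.00%), against 3.73% of all regions, and with lists of equal length it no longer met the rule. Leaving out a library loosens this rule to the lists that remain. Without normal-glucose replicate 1, 13 regions were in normal-glucose replicate 3, the longest list, and in no high-glucose list. Without normal-glucose replicate 3, 3 regions were in normal-glucose replicate 1 and in no high-glucose list. The count was 3 without high-glucose replicate 2 and 2 without high-glucose replicate 3. Shares over all regions are not given for these settings. No region of the 9 loci was held by the 3 high-glucose lists and lacking in both normal-glucose lists, against 0.167% of all regions.

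Pfkfb2, known for its heart isoform, was the one gene without a peak within 1 kb of a start in every list. With a start window of 2.5 kb all 9 genes had one. For Pfkfb2 in high-glucose replicate 3 that peak, at the 11.7 percentile, was in the region at the start of the neighbouring gene Yod1, described below. The start region of Pfkfb2 covered its middle and outer starts (chr1:130715801-130716081). It stood at percentiles 37.3 and 40.7 in high-glucose replicates 1 and 2, was not listed in high-glucose replicate 3, and stood at percentiles 68.7 and 75.2 in normal-glucose replicates 1 and 3. These ranks come from lists of different length. As the region was not in every list, it was not ranked at equal length, and the order is not read as a change. A shared region 17.7 kb upstream of the outer start (chr1:130733769-130733919) had the same order, at percentiles 18.6, 16.6 and 9.58 in the high-glucose lists against 53.8 and 62.9 in the normal-glucose lists. With lists of equal length, ranks can be set side by side, and there the upstream region stood at percentiles 18.6, 5.84 and 7.79 in high-glucose replicates 1, 2 and 3, against 49.5 and 32.4 in normal-glucose replicates 1 and 3. The groups did not overlap, which was the case for 1 of the 18 shared regions in this direction (5.56%), against 11.5% of the 11319 regions shared at equal length. The reverse order was found for 2 of the 18 (11.1%), the Slc2a4 region and the farther Slc2a3 region, against 12.1% of those 11319. Both shares were thus no higher than the background. A region at the start of Yod1, the gene next to Pfkfb2, lay 1332 bp upstream of the outer Pfkfb2 start. It was listed in high-glucose replicates 2 and 3 and in normal-glucose replicate 3.

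Pfkfb1, on the X chromosome, had 1 shared region among its 4 annotated starts, covering the second of them (chrX:150588086-150588272). It stood at percentiles 49.7, 69.0 and 35.3 in high-glucose replicates 1, 2 and 3, and at percentiles 60.9 and 71.7 in normal-glucose replicates 1 and 3. This region also lay at an end of Apex2, a neighbouring DNA repair gene, so its peak cannot be assigned to either gene. No list had a peak over the windows of the other 3 starts of Pfkfb1.

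Starts of the 7 genes with a peak held more CG dinucleotides than those without. Of the 14 promoter windows of the 7 genes, 5 had a peak over them in every list, 4 in some lists and 5 in none. The 9 windows with a peak held 8 to 30 CG dinucleotides and the 5 without held 1 or 2. Among 21237 promoters of protein-coding genes the median was 13 in all, and it was 24 where every list had a peak, 20 where some had one and 4 where none had. The outer start of Pfkfb2, with a peak in normal-glucose replicate 3 alone, held 8. Hk1, Pfkfb1 and Pfkfb2 each had starts of both kinds within 1 gene. For Pfkfb1 the window of the second start held 20 CG dinucleotides and those of the other 3 held 1, 1 and 2. At the outer start of Pfkfb3 the window held 30, the most of the 14, and a peak lay over it in high-glucose replicates 2 and 3 and normal-glucose replicate 3, while in the other 2 lists the peak lay past the window.

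**Figure D4:**
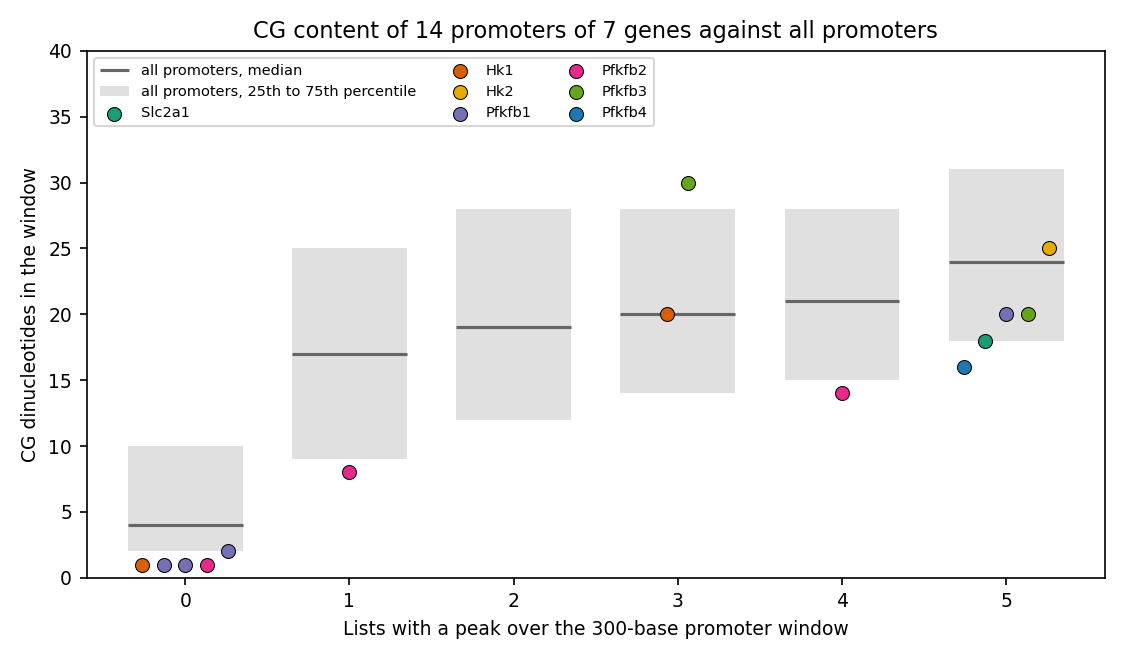
Number of CG dinucleotides in the promoter window of 300 bases (vertical axis) by how many of the 5 lists had a peak over it (horizontal axis). Points are the 14 annotated starts of 7 genes, and grey bars and lines give the quartiles and median of all promoters with the same number of lists. The 5 starts with no peak held 1 or 2 CG dinucleotides.

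The letters ACGTG occurred in 7 of the 14 windows on either strand, against 20.9% of all 21237 promoter windows. They were those of Slc2a1, Hk2, the inner start of Hk1, both starts of Pfkfb3, and the inner and middle starts of Pfkfb2. Among the 6376 windows with a peak in every list the share was 28.7%. Of the 14 windows 5 had a peak in every list, and among these ACGTG was in those of Slc2a1, Hk2 and the inner start of Pfkfb3. The E-box letters CACGTG, which contain ACGTG on both strands, occurred in 2 windows, those of the middle start of Pfkfb2 and the inner start of Pfkfb3, against 7.84% of all. A pair of E-boxes spaced by 5 bases is the arrangement known for the glucose-responsive factor ChREBP. Only pairs of exact CACGTG letters were searched. None of the 14 windows and none of the 21237 held such a pair, so the search could not set these windows apart, and inexact pairs were not searched. The GC box GGGCGG was in 7 of the 14, against 46.2% of all, and the TATA box letters TATAAA in 2, against 12.6% of all. The CCAAT box was in 6, against 38.2% of all. Among the 6376 windows with a peak in every list the shares were 11.2% for the E-box and 77.2% for the GC box. They were 4.42% for the TATA box and 45.2% for the CCAAT box. Counts over the 14 windows are not set against these shares, since most of the 14 lacked a peak in some list. All 5 windows with a peak in every list held the GC box, and that of the inner start of Pfkfb3 alone held the E-box. Among these 5, the TATA box was in that of Slc2a1 alone, and the CCAAT box in those of Slc2a1, Hk2 and Pfkfb4. Such matches describe letters within 250 bases before and 50 after a start and are not evidence of binding.

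The number of peaks per locus was not found to differ with glucose. Over the 9 loci together the lists held 22, 33 and 22 peaks in high-glucose replicates 1, 2 and 3, and 26 and 45 in normal-glucose replicates 1 and 3, with means of 25.7 ± 6.35 (SD, n = 3) in high glucose and 35.5 ± 13.4 (SD, n = 2) in normal glucose. High minus normal glucose was -9.83 peaks, which became -0.333 without normal-glucose replicate 3 and -19.3 without normal-glucose replicate 1. With every list at 22149 peaks the counts were 22, 30 and 22 in the high-glucose lists and 25 and 27 in the normal-glucose lists. At single loci the widest gap was at Slc2a3, with 5, 3 and 4 peaks in the high-glucose lists and 5 and 9 in the normal-glucose lists (p = 0.4, two-sided exact permutation test over libraries). Hk2 came next, with 1, 3 and 2 peaks in high glucose and 3 and 6 in normal glucose (p = 0.4, exact permutation test). Without normal-glucose replicate 3 the difference was -1 peak at each of these loci. For the 9 genes the unadjusted exact permutation p lay between 0.4 and 1, and 3 against 2 libraries cannot give less than 0.2.

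**Figure D5:**
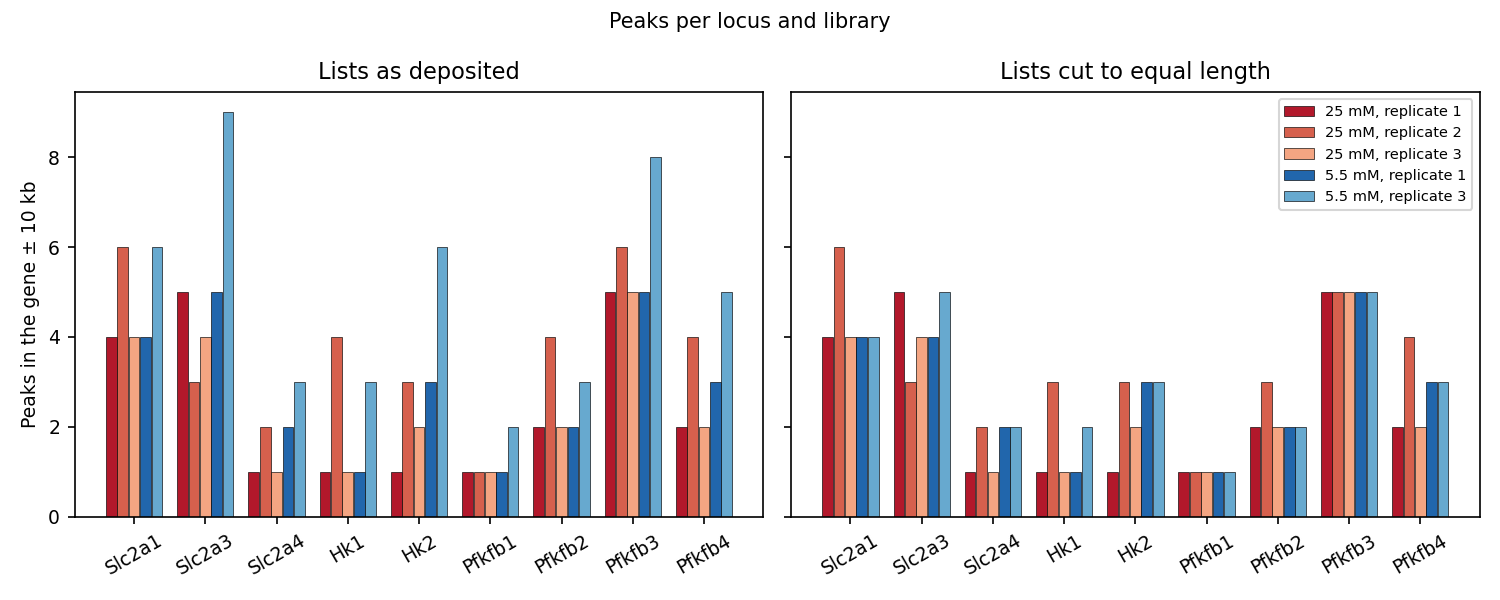
Peaks in each gene and the 10 kb either side (vertical axis) for the 3 high-glucose (25 mM) and 2 normal-glucose (5.5 mM) libraries, in lists as deposited (left) and cut to equal length (right). Normal-glucose replicate 3 held 9 peaks at Slc2a3 in its deposited list and 5 at equal length.

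Of 35 other genes of the pathway, 19 had a start peak in every list (54.3%), 3 in some lists and 13 in none. Across all protein-coding genes 37.2% had one in every list and 46.8% had none in any list. Among 10 other genes of the sugar transporter families, Slc2a6, Slc2a8, Slc2a10 and Slc2a13 had one in every list, while Slc2a2, Slc2a5, Slc2a9, Slc2a12, Slc5a1 and Slc5a2 had none. Slc2a2 and Slc2a5 encode the liver-type glucose and the fructose transporter, and Slc2a13 a proton-coupled transporter of myo-inositol. Khk, the fructose kinase gene, had a start peak in every list. Hk3, a hexokinase gene best known from blood cells, and Hkdc1, which encodes a hexokinase domain protein, had none in any list. The phosphofructokinase genes Pfkl, Pfkm and Pfkp and the fructose 2,6-bisphosphatase gene Tigar had one in every list, and the gluconeogenic bisphosphatase genes Fbp1 and Fbp2 had none. Of 15 genes of later glycolysis and lactate transport, 10 had one in every list, among them Gapdh, Pgk1 and Pkm, while Gpi1, Eno2 and Ldha had one in 4, 3 and 3 lists. For Ldha, the lactate dehydrogenase A gene, the lists were high-glucose replicate 3 and both normal-glucose replicates. Of these 35 genes, 0 had a start peak in every list of one condition and in none of the other. Over all protein-coding genes 0.0685% had one in the high-glucose lists alone and 0.653% in both normal-glucose lists alone.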

How the data were processed

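ATAC-seq peak lists of 6 libraries, 3 in 25 mM and 3 in 5.5 mM glucose, were analysed, with groups and replicate numbers from the titles. The submitters' processing notes name mm10 and, without roles or settings, MACS2 2.1.0, Bowtie 1.0.0, Picard 1.90, DiffBind 1.12.3, SAMtools 0.1.19, cutadapt 1.0, edgeR and FastQC. Transposase offset, duplicates and mitochondrial reads are not given in the sources used here. Each deposited list gives where a peak and its summit lie, with the authors' fold enrichment, score, −log10 p-value and −log10 q-value. Every −log10 q was at least 1.30.

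Lists with at least 1000 peaks entered. Peaks on nuclear chromosomes that overlapped by at least 1 bp were merged into regions. Percentiles rank −log10 p within a list, and where a list had several peaks in a region the best was used. Starts came from RefSeq (GRCm38.p6) promoter tables for 17491 of 21883 protein-coding genes, and otherwise both gene ends counted. The annotation used has no exons. Every region of the 9 genes is counted, and described were start regions, those in every list, those of 1 condition and the highest ranked. One gene of the pathway lists is not reported here and was left out of the counts. The members and lists were chosen with earlier results of these data known. Exact permutation tests were two-sided over libraries. Alternatives were equal list length, a −log10 q of at least 5, all 6 libraries, each library left out, merging within 200 bp, a 50% overlap, other windows, and pairs by number. Ranks at equal length and summit positions were compared after seeing the data. Merging was checked on simulated lists and with bedtools 2.31.1. Python 3.11.15, pandas 2.3.3 and SciPy 1.17.1 were used.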

Additional observations from a re-analysis of the deposited data

How the results depend on the processing

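The 5 lists cannot show weak sites, and their depth is unknown. The 18 regions in every list were 18 with lists of equal length too, and all 18 overlapped the same regions. Under each of the 12 alternatives 0 regions were held by the high-glucose lists alone. The loci held 33 regions when peaks needed a −log10 q of 5 or more. With 50 kb either side they held 86, of which 35 were in every list and 3 in normal-glucose lists only. Where a peak had to cover at least 50% of its region, 11 were in every list. With all 6 libraries 0 regions and 0 genes had a peak in every list, since normal-glucose replicate 2 had none there, 0 regions met the normal-glucose rule, and the difference in peaks over the loci, high minus normal glucose, reversed to 2, against -9.83 in the 5 lists. The single normal-glucose region became 0 with equal lengths and with gene bodies alone. Leaving out each library gave 1 to 13. The highest count was without normal-glucose replicate 1, where normal-glucose replicate 3, the longest list, was the only normal-glucose list left. Leaving out each library gave differences in peaks over the loci of -19.3 (without normal-glucose replicate 1) to -0.333 (without normal-glucose replicate 3).

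At single loci, equal lengths gave a difference of 0.667 for Slc2a1, against -0.333 in lists as deposited, and 0 for Pfkfb1, 0 for Pfkfb3 and 0.167 for Hk1, which was 0 in lists as deposited. Leaving out each library gave -1.33 to 0.667 for Slc2a1, -1 to 0 for Pfkfb1, -0.5 to 0.667 for Pfkfb2, -2.67 to 0.333 for Pfkfb3 and -1 to 1 for Hk1. A replicate block over the same-numbered libraries 1 and 3 gave -13.5 over the loci, from pairs of -4 and -23, and -0.5 for Pfkfb2 against 0.167 without it, and -1 for Hk1. The labels give these pairs only a shared number. Deviations of same-numbered libraries from their group means over 11319 shared regions correlated at -0.0398 and 0.0447. With 2 normal-glucose libraries those deviations mirror each other, so the correlations cannot show whether same-numbered libraries belong together. The causes of these changes were not tested.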
